A study of Mus musculus with 4 samples.

Results

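Copines are a family of cytosolic proteins that bind membrane phospholipids when calcium rises. Each carries a pair of C2 domains, the calcium-sensing fold also found in synaptotagmins and protein kinase C, followed by a domain related to the von Willebrand factor A domain that binds other proteins. In neurons they are known as one way by which a calcium signal moves proteins to the membrane, and Cpne6 in particular has been tied to the shape of dendritic spines. All 9 copine genes, Cpne1 to Cpne9, were found by symbol among the 53465 gene identifiers of the count matrix, each under a single Ensembl identifier. The family was selected on the contrast of isolated against group-housed libraries, in which the small p of Cpne9 was known, and the members were then chosen by their symbols. All values of that contrast below are therefore a description.

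The RNA came from tissue of the lateral habenula, a small epithalamic nucleus above the thalamus, of C57BL/6 mice. One group was kept in company (group-housed, 2 libraries) and one was socially isolated (2 libraries), and no genetic change or drug is named for either. The duration of isolation, the age and sex of the mice and whether a library is 1 animal or a pool are not stated in the labels, so p-values measure the spread between these samples only, which may be technical. The series asks what acute isolation does to this nucleus.

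Total counts were 20897605 to 26428152 per library. All 10 lateral habenula markers were detected, with Slc17a6, the vesicular glutamate transporter gene, the most abundant by its mean over the 4 libraries, at 381 to 439 CPM (counts-per-million, with library totals scaled by TMM). All 12 medial habenula markers (summed 1249 to 1726 CPM) and all 12 thalamus markers (807 to 1150 CPM) were detected too. The lateral habenula list summed to 1909 to 2196 CPM with overlapping groups. All 10 oligodendrocyte and all 10 microglia markers, 8 of 10 astrocyte markers, 8 of 10 neuron markers and 6 of 9 tested choroid plexus markers were lower in mean in the isolated libraries, with median log2 fold changes of -0.22, -0.14, -0.12, -0.04 and -0.35. The choroid plexus sum was highest in group-housed replicate 2 (151 CPM) and lowest in group-housed replicate 1 (44.8), with 67.0 and 79.6 CPM in the isolated libraries, so its groups overlapped. All 10 ependyma markers were higher in mean in the isolated libraries, with a median log2 fold change of 0.67. Of these, 8 lay wholly above the group-housed pair (17.4% of all tested genes). Their sum was 86.0 and 81.4 CPM in group-housed libraries against 89.0 and 175 in isolated ones. In bulk RNA, fewer cells of a type and less RNA per cell cannot be told apart.

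The genes lie on 8 chromosomes of GRCm38 (GENCODE M21). Cpne4 (ENSMUSG00000032564) spans chr9:104547286-105034544 on the plus strand and Cpne9 (ENSMUSG00000030270) spans chr6:113282307-113305627, also on the plus strand. Cpne7 (ENSMUSG00000034796) lies at chr8:123117374-123135182 and Cpne2 (ENSMUSG00000034361) at chr8:94532990-94570531, both on the plus strand. Cpne6 (ENSMUSG00000022212) lies at chr14:55510445-55517431 on the plus strand. The minus-strand members are Cpne1 (ENSMUSG00000074643, chr2:156071842-156111965), Cpne3 (ENSMUSG00000028228, chr4:19519254-19570108), Cpne5 (ENSMUSG00000024008, chr17:29155556-29238167) and Cpne8 (ENSMUSG00000052560, chr15:90487482-90679432). Despite these different spans, the longest complete coding sequences were alike in size, from 1602 bases in Cpne3 to 1782 in Cpne5.

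Aligned in pairs, the coding sequences shared 61.1% to 75.6% of their bases, with a median of 63.7% over the 36 pairs. Cpne9 was closest to Cpne5 (75.6%) and Cpne8 (71.0%), and Cpne5 and Cpne8 shared 72.7%. Cpne4, Cpne6 and Cpne7 formed another close set, with 71.0% between Cpne4 and Cpne7, 69.4% between Cpne6 and Cpne7 and 68.3% between Cpne4 and Cpne6. Such kinship matters for counting, since a read inside a stretch that 2 members share cannot be assigned to 1 of them. Identical stretches were sought at any position of the whole coding sequences, not only where they align. Shown are the longest of all pairs and the longest that Cpne9 shared with any member. Cpne2 and Cpne6 also shared 23 bases. Untranslated exon bases were not compared, so these stretches do not bound the problem.
Cpne5 and Cpne6: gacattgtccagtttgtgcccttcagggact
Cpne5 and Cpne9: gtgttctacaggagcaatgaaga
The stretch shared by Cpne5 and Cpne6 was 31 bases long (coding positions 1552 to 1582 and 1498 to 1528, counted from the start codon), and it was the only one of 30 bases or more among the 36 pairs. The longest that Cpne9 shared with any member was 23 bases, with Cpne5. The median over the pairs was 17 bases. The sources used here do not state the read length.

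**Figure D1:**
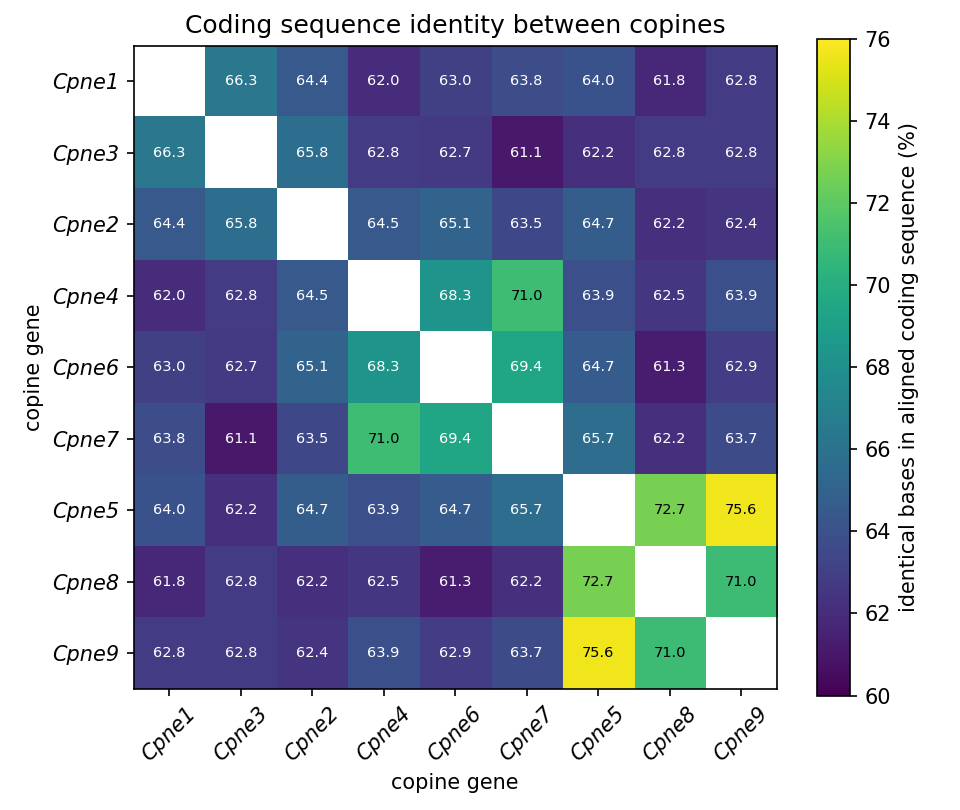
Percent of identical bases in the aligned coding sequences of each pair of the 9 copine genes, with genes on both axes and the percent as colour and number. The brightest blocks are Cpne5, Cpne8 and Cpne9 (71.0% to 75.6%) and Cpne4, Cpne6 and Cpne7 (68.3% to 71.0%).

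Cpne4 and Cpne9 were the members whose isolated libraries both exceeded the group-housed pair, and the 250 bases before their annotated starts are printed to let a reader compare them (RefSeq, GRCm38.p6, plus strand). The table of promoters held 7 starts for 6 members, 2 of them for Cpne4. Both Cpne4 windows lie inside the GENCODE span of the gene given above, so neither stands before its outermost start. Capitals mark matches on either strand to the letters TATAAA, which stand for a TATA element, CCAAT, which is the box of that name, GGGCGG, which is the GC box, or TGACG, which is the half-site of the cyclic AMP response element.
Cpne9, chr6:113282057-113282306: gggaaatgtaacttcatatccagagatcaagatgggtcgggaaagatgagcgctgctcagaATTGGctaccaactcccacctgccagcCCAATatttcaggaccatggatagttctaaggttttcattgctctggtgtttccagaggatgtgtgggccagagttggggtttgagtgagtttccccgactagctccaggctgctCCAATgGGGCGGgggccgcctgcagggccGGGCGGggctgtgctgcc
Cpne4, first start, chr9:104569405-104569654: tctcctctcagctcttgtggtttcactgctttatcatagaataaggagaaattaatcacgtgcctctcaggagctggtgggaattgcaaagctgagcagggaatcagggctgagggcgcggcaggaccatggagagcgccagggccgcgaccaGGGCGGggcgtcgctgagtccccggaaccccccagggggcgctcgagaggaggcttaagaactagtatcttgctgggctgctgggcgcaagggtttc
Cpne4, second start, chr9:104587808-104588057: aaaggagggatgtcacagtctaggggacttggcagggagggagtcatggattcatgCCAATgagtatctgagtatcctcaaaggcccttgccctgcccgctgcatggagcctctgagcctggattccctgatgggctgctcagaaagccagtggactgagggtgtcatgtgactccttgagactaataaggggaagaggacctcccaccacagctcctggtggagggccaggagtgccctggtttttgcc
The Cpne9 window held 3 CCAAT and 2 GC box matches, of which the CCAAT match 47 bases before the start and the GC box match 41 bases before it stood next to each other without overlapping. The first Cpne4 window held 1 GC box match and the second held 1 CCAAT match. Over all 32851 promoter windows of this length, 33.8% held a CCAAT match, 32.7% a GC box match, 17.8% the half-site and 12.4% a TATA box match, so none of these letters is rare. The Cpne9 window held 7 CpG dinucleotides and the Cpne4 windows 13 and 1, beside a median of 6 over all promoters. The Cpne1 window held 11, and those of Cpne2, Cpne5 and Cpne8 held 27 to 32. Cpne3, Cpne6 and Cpne7 had no entry. A match is a description of the letters and says nothing of binding.

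The copine family in this tissue was led by Cpne4, followed by Cpne9, Cpne7 and Cpne6. Levels are compared between genes as TPM (transcripts-per-million): counts divided by the summed length of each gene's exons and scaled so that all genes of a library sum to the same total. Cpne4, described among other places in retinal ganglion cells, measured 119 TPM in group-housed replicate 1, 112 in group-housed replicate 2, 140 in isolated replicate 1 and 143 in isolated replicate 2. By this exon length, its range lay above those of the members other than Cpne1 in these 4 libraries. Its mean exceeded that of 90.7% of the 17528 tested genes. Cpne9 measured 65.2 and 69.1 TPM in group-housed libraries against 93.3 and 100.5 in isolated ones. Cpne7 measured 65.0, 78.0, 64.8 and 52.6 TPM in the same order of libraries, and Cpne6 55.7, 65.8, 58.5 and 51.3. Cpne9 exceeded Cpne7 in 3 of 4 libraries, and their ranges over the libraries overlapped. Cpne7 exceeded Cpne6 in 4 of 4 libraries, although their ranges overlapped too.

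Cpne2, at 36.2 to 40.7 TPM, stood clear of the members on either side of it. Cpne3, a copine reported to bind the ErbB2 receptor, ranged from 17.9 to 19.9 TPM and overlapped Cpne8, at 13.6 to 19.4, which it exceeded in 4 of 4 libraries. Cpne5 ranged from 4.06 to 5.47 TPM. These mid and low members differed little between libraries in the case of Cpne3 and Cpne2, whose CPM had a coefficient of variation of 3.44% and 5.54% over the 4 libraries, against 12.8% for Cpne5, 14.6% for Cpne8 and 19.7% for Cpne9. The order rests on the length used. With the coding length in place of the exon length, Cpne9 (mean 113 TPM) stood nearer to Cpne4 (123 TPM). Cpne3 (25.1 TPM) passed Cpne2 (23.0 TPM), the only change of order in the means. In isolated replicate 2, Cpne9 had more counts than Cpne4 (4854 and 4822) over a shorter coding length (1729 and 1746 bases). By that length Cpne9 therefore stood above Cpne4 in that library. Cpne5 came to 10.9 TPM by coding length, next to 11.0 for Cpne8.

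**Figure D2:**
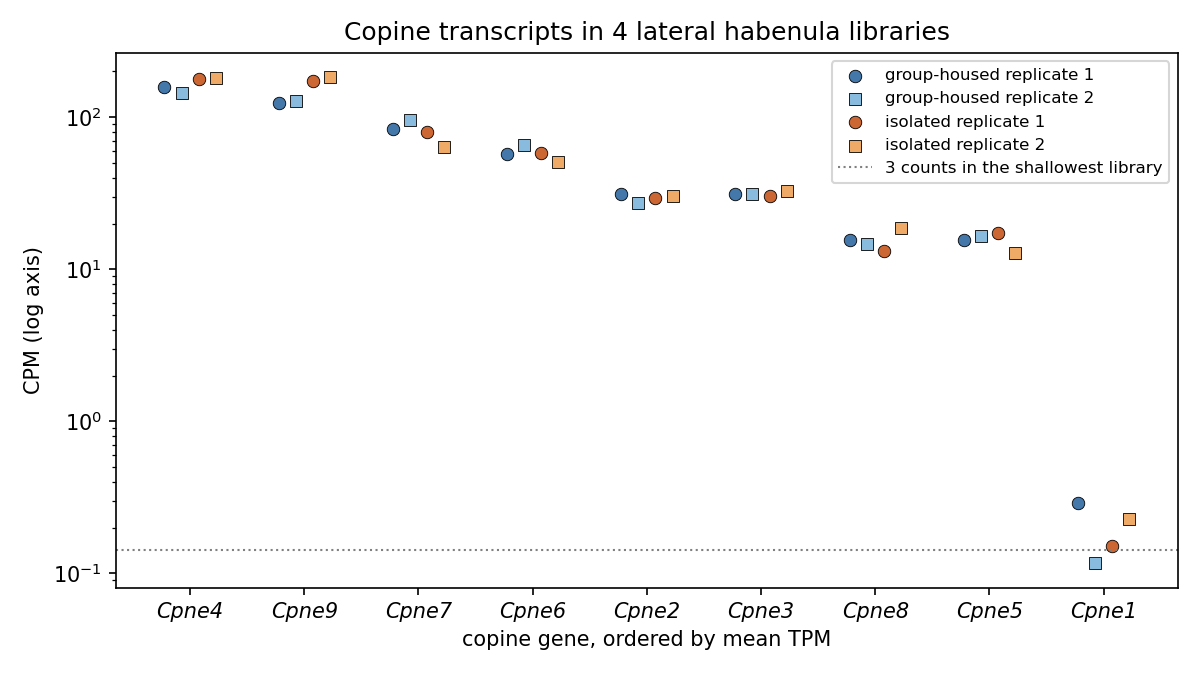
CPM on a log axis of each copine in each of the 4 libraries (1 point per library), with genes ordered by mean TPM and the dotted line at 3 counts in the shallowest library. Cpne4 and Cpne9 sit higher in both isolated libraries, Cpne7 lower, and Cpne1 lies at 3 to 6 counts.

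Cpne1 was the exception at the bottom of the scale. This broadly expressed copine had 6 and 3 counts in group-housed libraries against 4 and 6 in isolated ones, beside a floor of 3 counts, and it did not pass the filter on low counts, so 8 of the 9 members were tested. Of its 4507 exon bases, 84.1% (3789) also belonged to another gene on the same strand. The gene model Gm28036 (ENSMUSG00000098950) covered 3755 of them and had 0 counts in all 4 libraries, and Rbm12 (ENSMUSG00000089824), an RNA-binding protein gene, covered 404 and had 316 to 430 counts. Only 718 exon bases were Cpne1's own, and per those bases its mean was 1.16 TPM in place of 0.185. How the authors' counting treated reads in shared exons was not stated in the sources used here, and the part of these shared exons in the low count was not tested. The level of Cpne1 in the tissue can therefore not be read from its count.

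Other members were little touched by overlap. Cpne9 shared 3 exon bases with the opposite-strand model Gm43935, which had 1 to 4 counts beside 2563 to 4854 for Cpne9. Cpne7 shared 67 bases with the microRNA gene Mir7080, which had 0 counts, and Cpne5 shared 146 with the opposite-strand model AC162182.2, which was not used here. Cpne2, Cpne3, Cpne4, Cpne6 and Cpne8 shared none with another annotated gene.

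The make-up of the family is given here by library, as a description. Cpne4 and Cpne9 together made up 48.1% and 45.3% of the summed copine TPM in group-housed libraries against 53.8% and 56.4% in isolated ones. Cpne6 and Cpne7 made up 31.5% and 35.9% in group-housed libraries against 28.5% and 24.1% in isolated ones. In both pairs the groups did not overlap, but members were paired by sign, so nothing is read from that. Since shares sum to a whole, they do not move independently. The copine sum came to 383 and 400.4 TPM in group-housed libraries against 433 and 431 in isolated ones. Sums and shares take Cpne1 at its counted level, which cannot be read as its level in the tissue.

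**Figure D3:**
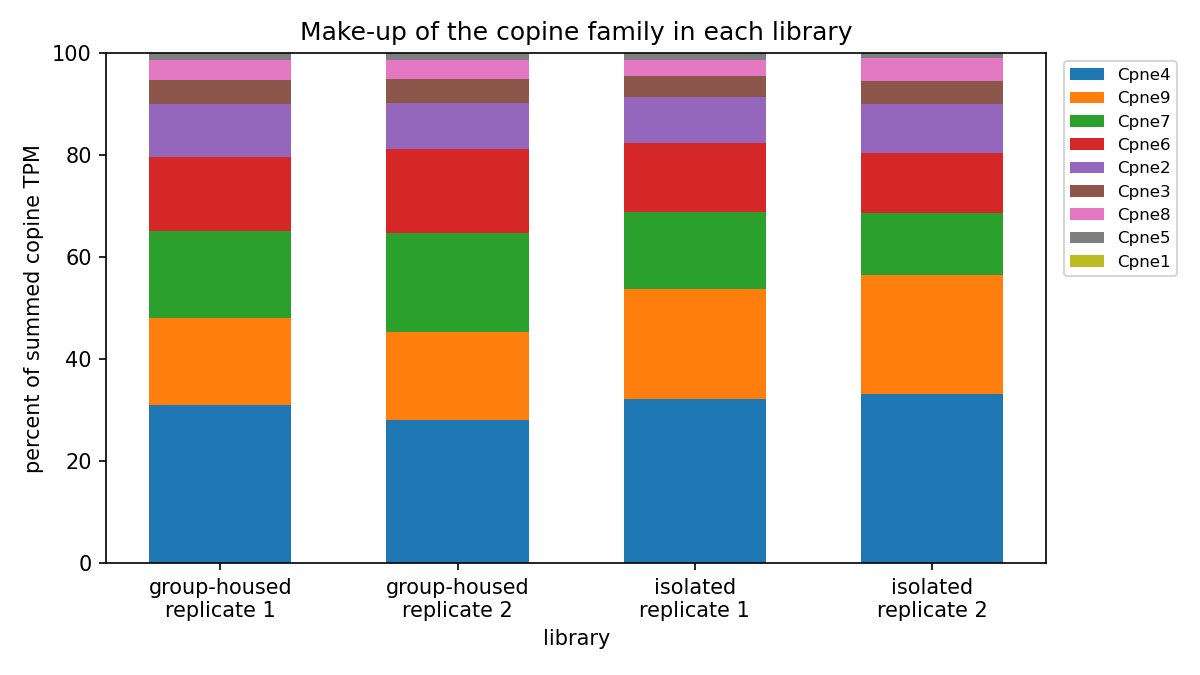
Stacked percent of the summed copine TPM held by each member (vertical axis) in each of the 4 libraries (horizontal axis). The segments of Cpne4 and Cpne9 together reach 45.3% to 48.1% in group-housed and 53.8% to 56.4% in isolated libraries. These members were paired by the sign of their change, so nothing is read from that.

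Between isolated and group-housed libraries, Cpne9 differed most among the members. It measured 125 and 128 CPM in group-housed libraries against 172 and 183 in isolated ones, with means of 126 ± 2.07 and 178 ± 7.94 (SD, n = 2 per group). Both isolated libraries stood well above both group-housed ones, and the gap between groups was wider than the spread inside either. The fold was 1.41 (log2 fold change 0.49, SE 0.06), and 977 of the 17528 tested genes had a larger absolute change.

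Cpne4 measured 159 and 145 CPM in group-housed libraries against 180 and 182 in isolated ones, with means of 152 ± 9.69 and 181 ± 1.55 (SD, n = 2 per group). The groups did not overlap, and the isolated pair, close to each other, stood clear of a wider group-housed pair. The log2 fold change was 0.25 (SE 0.07).

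Cpne7 had its lower values in the isolated libraries. It measured 83.2 and 96.6 CPM in group-housed libraries against 79.9 and 64.1 in isolated ones, with means of 89.9 ± 9.44 and 72.0 ± 11.2 (SD, n = 2 per group). The groups did not overlap, but isolated replicate 1 lay close under group-housed replicate 1. The log2 fold change was -0.32 (SE 0.11), ranging from -0.17 when isolated replicate 2 was left out to -0.49 when isolated replicate 1 was. Cpne6, the copine enriched in brain that moves to postsynaptic membranes on calcium entry, measured 57.6 and 65.8 CPM in group-housed libraries against 58.3 and 50.6 in isolated ones. In Cpne6 the groups overlapped, with group-housed replicate 2 highest and isolated replicate 2 lowest, as for Cpne7, and the log2 fold change was -0.18 (SE 0.09). Leaving out isolated replicate 2 gave -0.08, leaving out group-housed replicate 2 gave -0.09 and leaving out isolated replicate 1 gave -0.29.

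The remaining members had overlapping groups. Cpne2 (27.2 to 31.1 CPM over the 4 libraries) and Cpne3 (30.2 to 32.8) gave log2 fold changes of 0.03 (SE 0.09) and 0.02 (SE 0.08). Cpne8 measured 15.5 and 14.8 CPM in group-housed libraries against 13.3 and 18.7 in isolated ones, so that the isolated pair held both its lowest and its highest value. Cpne5 did the reverse with the same libraries, at 15.6 and 16.5 CPM in group-housed libraries against 17.4 and 12.8 in isolated ones. Their log2 fold changes were 0.08 (SE 0.16) and -0.09 (SE 0.15). Cpne5 and Cpne8 are the members closest to Cpne9 in coding sequence, and neither had separate groups as Cpne9 did. Likewise Cpne4 and Cpne7, alike in sequence, lay on opposite sides. Whether members differed from each other in their response was not tested.

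**Figure D4:**
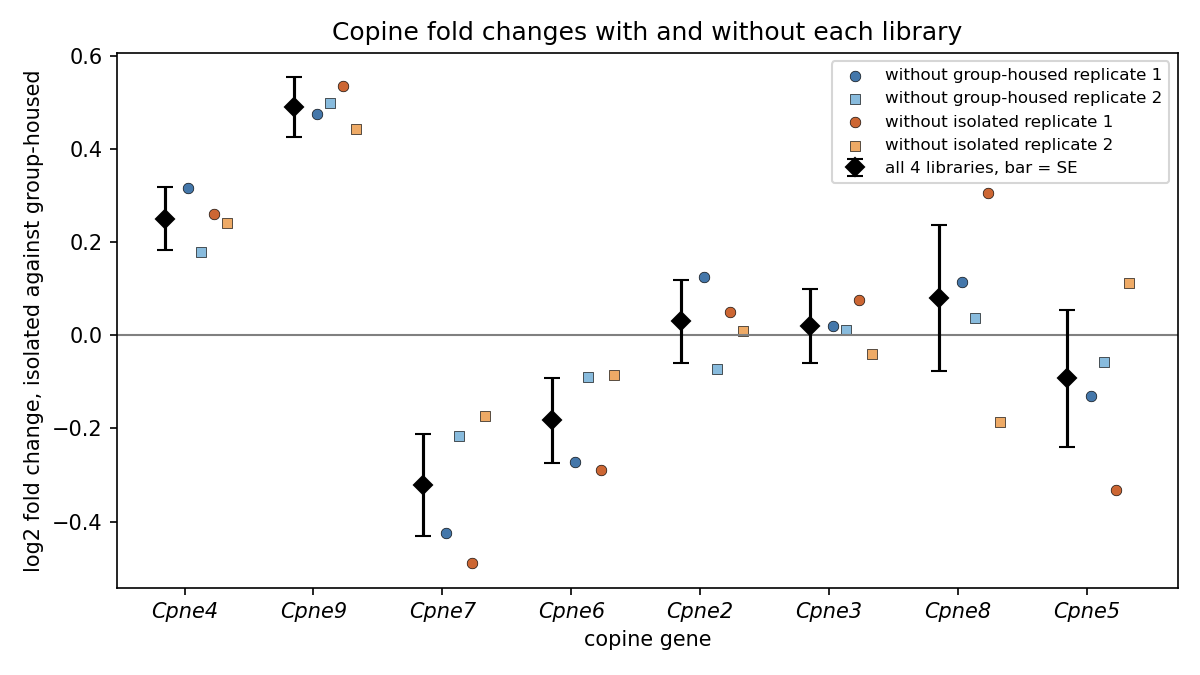
Log2 fold change of isolated against group-housed libraries (vertical axis) for the 8 tested copines (horizontal axis), with diamonds and SE bars for all 4 libraries and coloured points for fits that leave out 1 library. Cpne9 stays between 0.44 and 0.54 and Cpne4 between 0.18 and 0.32, Cpne7 between -0.49 and -0.17, and Cpne2, Cpne3, Cpne5 and Cpne8 have points on both sides of 0.

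With edgeR (quasi-likelihood test, Benjamini-Hochberg adjustment over all genes, threshold 0.05), 0 of the 8 tested copines passed, beside 0.0114% of all tested genes. At an unadjusted p below 0.05 there were 3, Cpne4 and Cpne9 as higher and Cpne7 as lower, beside 2.83% of all tested genes as higher and 2.26% as lower. Limma-voom passed 0 copines and likewise 0.0114% of genes. DESeq2 and edgeR's exact test each passed Cpne9 alone of the family, as higher, beside 0.240% and 0.382% of genes, and so did the quasi-likelihood test with no filter on low counts (0.0513% of genes). Without isolated replicate 1 the quasi-likelihood test passed Cpne9 as higher, beside 0.810% of genes, and Cpne7 as lower, beside 0.394%. The isolated pair lay wholly above the group-housed pair for 2 of the 8 (17.4% of all tested genes) and wholly below it for 1 (16.3%). Nothing is read from these counts, since the family was selected on this contrast. The median log2 fold change of the 8 members was 0.02, beside 0.00331 over all tested genes.

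Markers of neighbouring tissue were measured in the same libraries. Of the 12 medial habenula markers 11 were higher in mean in the isolated libraries, 10 lay wholly above the group-housed pair (17.4% of all tested genes) and 1 wholly below (16.3%), and their summed level was 1249 to 1354 CPM in group-housed and 1711 to 1726 in isolated libraries. Of the 12 hippocampus and cortex markers, 10 passed the filter and 6 of these were higher in mean. Of the 10, 4 lay wholly above the group-housed pair (17.4% of all tested genes) and 2 wholly below it (16.3%). The sum of this list was 421 to 430 CPM in group-housed and 476 to 515 in isolated libraries. The medial habenula list's median centred level (log2 CPM minus each gene's mean over the libraries) was -0.13 and -0.25 in group-housed libraries against 0.20 and 0.23 in isolated ones, beside -0.26, -0.23, 0.20 and 0.29 for Cpne9 and -0.06, -0.19, 0.12 and 0.13 for Cpne4. The only 2 genes to pass the quasi-likelihood test over all genes, Slc5a7 (log2 fold change 0.65, SE 0.06) and the nicotinic receptor subunit gene Chrnb3 (0.85, SE 0.08), the latter named after its value was seen, had an adjusted p of 0.0227 each in edgeR and both belong to the medial habenula list. The gene lists were chosen with earlier results of these data known, so nothing is read from this membership. None of these markers was at 0 in all libraries. The part of medial habenula or hippocampal tissue in the values of Cpne9 and Cpne4 was not tested.

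All 12 thalamus markers were lower in mean in the isolated libraries, 11 wholly below the group-housed pair (16.3% of all tested genes), at a summed 1034 to 1150 CPM in group-housed and 807 to 936 in isolated libraries, and none was at 0. The list's median centred level was 0.16 and 0.33 in group-housed libraries (replicates 1 and 2), -0.02 and -0.43 in isolated ones. Cpne7, at 0.06, 0.27, -0.00404 and -0.32, had the same order of libraries, and Cpne6, at -0.00475, 0.19, 0.01 and -0.19, shared its highest and its lowest library. The part of thalamic tissue in the values of Cpne7 and Cpne6 was not tested. Isolated replicate 2, in which Cpne8 was highest and Cpne5 lowest, also held the highest sum of the 10 ependyma markers, 175 CPM against 81.4 to 89.0 in the other libraries, and their part was likewise not tested.

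**Figure D5:**
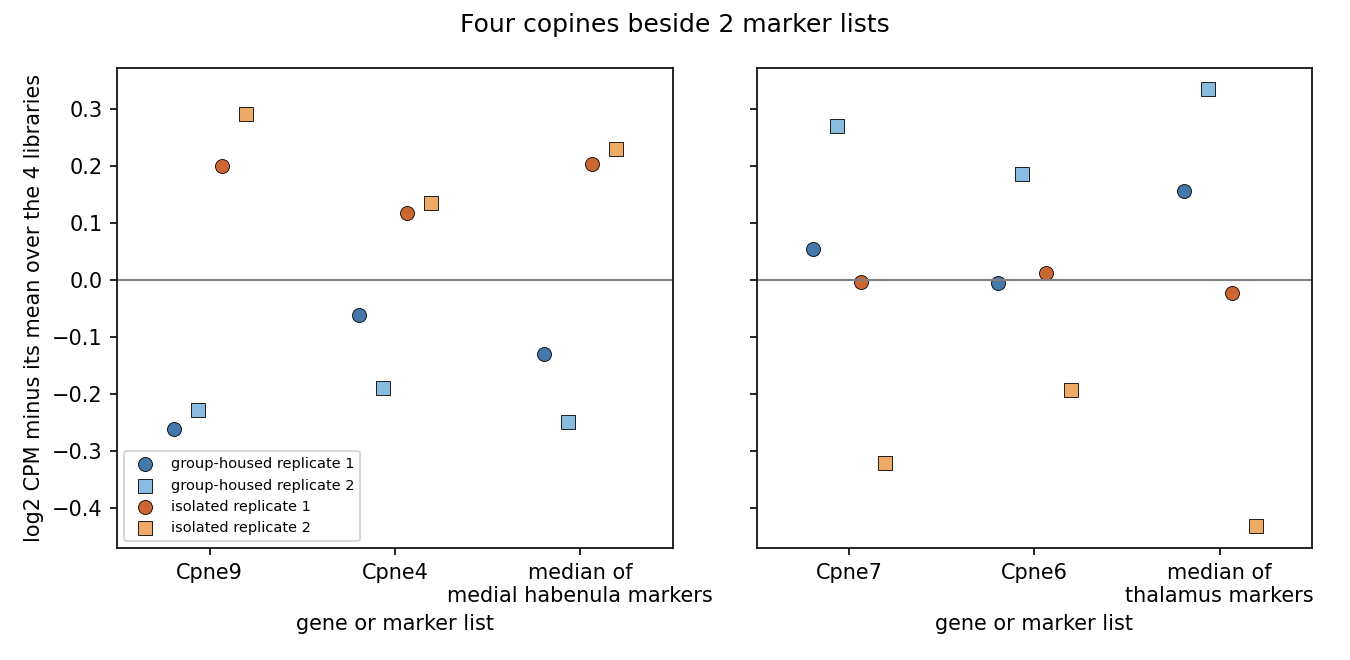
Log2 CPM minus the mean over the 4 libraries (vertical axis) for Cpne9, Cpne4 and the median of 12 medial habenula markers (left) and for Cpne7, Cpne6 and the median of 12 thalamus markers (right), 1 point per library. On the left the isolated pair lies above the group-housed pair; on the right group-housed replicate 2 is highest and isolated replicate 2 lowest.

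Among 103 tested marker genes, those nearest to each copine of at least 20 CPM were found by the largest absolute difference in centred log2 CPM over the 4 libraries. For Cpne4 they were Gpr151 (0.05), Sstr2 (0.05) and Pou4f1 (0.07), from the list used here for the lateral habenula. How particular these genes are to that nucleus was not tested. Of that list, 5 of 10 were higher in mean in the isolated libraries and 5 lower (median log2 fold change -0.04). The isolated pair lay wholly above the group-housed pair for 3 (17.4% of all tested genes) and wholly below for 1 (16.3%). Gpr151, an orphan receptor gene, measured 396, 352, 425 and 426 CPM in the same order of libraries. For Cpne7 all 3 were thalamus markers, Plekhg1, Slitrk6 and Rgs16 (0.11 to 0.12). For Cpne9 they were Fibcd1 and Neurod1 of the hippocampus and cortex list and Slc5a7, the choline transporter gene of the medial habenula list (0.12 each). For Cpne6 they were Gap43 (0.09), C1qb (0.09) and Stmn2 (0.12), for Cpne2 they included P2ry12 (0.09) and Gpr151 (0.10) and for Cpne3 Wfs1, Aqp4 and Il18 (0.06 to 0.07), in each case from more than 1 list. Other genes lay as near: 40 of the other 17527 tested genes were as near to Cpne4 as Gpr151, 219 as near to Cpne6 as Gap43, 112 as near to Cpne7 as Plekhg1, 99 as near to Cpne9 as Fibcd1 and 1142 as near to Cpne3 as Wfs1.

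Other genes were described by lists of proteins with C2 domains, annexins and reported copine partners. Of their 65 tested members, 0 passed edgeR's quasi-likelihood test in either direction, beside 0.0114% of all tested genes. At an unadjusted p below 0.05 there were 9, beside 2.83% of all tested genes as higher and 2.26% as lower. Limma-voom passed 0, and DESeq2 and the exact test passed 1 each, Syt9. Of 30 synaptotagmins and other vesicle proteins with C2 domains, 29 were tested, with 16 higher and 13 lower in mean and a median log2 fold change of 0.02. The isolated pair lay wholly above the group-housed pair for 9 of the 29 (17.4% of all tested genes) and wholly below for 4 (16.3%). Syt9, a calcium sensor of vesicle release, measured 279 and 255 CPM in group-housed libraries against 359 and 374 in isolated ones (log2 fold change 0.46), close to the size seen for Cpne9. Syt6 (0.38) and Syt15 (0.28) also had separate groups with higher isolated values, and Rph3a, which encodes the vesicle protein rabphilin, lower ones (-0.28).

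Of 16 signalling and lipid-contact proteins with C2 domains, 8 were higher and 8 lower, with a median of -0.04. For 3 of the 16 the isolated pair lay wholly above the group-housed pair (17.4% of all tested genes), and for 4 wholly below (16.3%). Among the latter were Mctp2 (-0.32), the phospholipase gene Pla2g4a (-0.29) and Plcd4 (-0.25). Of 12 annexins, which bind membranes in a calcium-dependent way without a C2 domain, 9 were tested, with a median of -0.00275. For 2 of the 9 the isolated pair lay wholly above (17.4% of all tested genes), and for 0 wholly below (16.3%). The 2 were Anxa7 (0.08) and Anxa1, at 0.272 to 1.55 CPM.

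Of 11 genes whose proteins have been reported to bind a copine, 2 were higher and 9 lower in mean, with a median of -0.03. Erbb2, the receptor tied to Cpne3, was low at 1.31 and 2.41 CPM in group-housed libraries against 2.63 and 2.87 in isolated ones (log2 fold change 0.54). Rac1, the small GTPase reported as a partner of Cpne6, measured 277 and 261 CPM in group-housed libraries against 249 and 257 in isolated ones (-0.09). Ntrk2, the receptor for brain-derived neurotrophic factor, gave -0.11 and Rdx, the membrane-to-actin linker radixin, -0.11. These 4 were named from the members with separate groups. For 1 of the 11 the isolated pair lay wholly above the group-housed pair (17.4% of all tested genes), and for 3 wholly below (16.3%).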

How the data were processed

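Trizol was used for the RNA and Illumina's stranded TruSeq mRNA kit for the libraries, per the labels' protocols. Tools listed in the submitters' processing notes, without their roles, are TopHat2 2.1.1, HTSeq, CASAVA and edgeR, with the build GRCm38; the annotation release, strand setting and read length are not stated. The authors deposited a matrix of raw counts per Ensembl gene, used for all values here. The authors also deposited a signal per gene, found on checking to be each count times a constant of its library, which was not used further. Of 53465 identifiers, 53274 matched a symbol of GENCODE M21 (GRCm38).

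The contrast, isolated minus group-housed, was fitted by a quasi-likelihood test in edgeR 4.0.16 (R 4.3.3) over the 17528 genes that passed filterByExpr, with TMM scaling, no covariate and 2-sided p-values adjusted by Benjamini-Hochberg. The test was checked on simulated data. SE is the log2 fold change over the square root of F. Alternatives used DESeq2 1.42.0, limma 3.58.1, other scalings and filters, a replicate block, and fits without 1 library. TPM used union exon length. Total counts were 20897605 to 26428152 per library, where 3 counts are 0.114 to 0.144 CPM, which covers counting error only.

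The members and gene lists were chosen with earlier results of these data known. Named were all copines, up to 4 genes per list of related proteins with separate groups by size of change, the 3 nearest markers per copine of at least 20 CPM, overlapping genes and abundant markers. Some genes that this rule picks are not reported here.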

Additional observations from a re-analysis of the deposited data

How the results depend on the processing

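Counts over all genes moved with the tool: 2 genes were called higher and 0 lower in the quasi-likelihood test, 42 and 11 with DESeq2, 67 and 15 with edgeR's exact test and 15 and 0 with no filter on low counts. With the replicate number as a block they were 52 and 12. Without 1 library they ranged from 1 to 142 (higher) and 0 to 69 (lower), the most without isolated replicate 1. Of the copines 0 were called, 1 (Cpne9) in each of DESeq2, the exact test, the unfiltered fit and the replicate block, and 0 to 2 without 1 library. The numbers share only a label: the deviations of same-numbered libraries correlated at 0.141 over genes. The median copine log2 fold change ranged from -0.023 to 0.067 without 1 library. Without 1 library the sign turned for Cpne2 (-0.072 to 0.13), Cpne3 (-0.041 to 0.077), Cpne5 (-0.33 to 0.11) and Cpne8 (-0.19 to 0.31). The cause was not tested. Cpne4, Cpne6, Cpne7 and Cpne9 kept their direction in all 12 alternatives. Cpne4 held 29.7% to 32.1% of the family under the other lengths and without 1 library, with Cpne1 taken at its counted level. Exon bases not shared with a same-strand gene were added as a length after seeing the data. With 2 libraries per group, the spread within a group is poorly known.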
